A study of Mus musculus with 4 samples.

Results

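The genes described here encode proteins that detect DNA damage, signal it and repair it. A set of 49 named genes was followed in brain RNA of mice with and without Atm, and members were all probes whose gene symbol in the platform annotation was one of the 49. These came to 100 of the 45281 probes on the array and to 46 of the 49 genes. Trp53, Xrcc2 and Dclre1c had no probe under their symbol and were not analysed here. The study compared 2 Atm+/+ with 2 Atm-/- brain samples of a mixed 129J x C57BL/6 background, 1 Illumina bead array per sample. The rule takes genes by their known roles and uses no value on these arrays. Its members were, however, chosen with earlier results of these data known. Which Atm allele was used, how old the mice were, their sex and the dissected part of the brain are not stated in the labels. Nor do the labels name separate animals within a genotype, so a p-value here covers the spread of these 4 samples alone, and that spread may be technical.

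ATM is a kinase recruited to DNA double-strand breaks, where it phosphorylates checkpoint kinases, p53 and mediator proteins. Breaks are then rejoined directly by end joining or copied from a sister chromatid by homologous recombination. Neurons no longer divide, so end joining and the repair of single-strand breaks and damaged bases are thought to carry most of their repair, while homologous recombination, mismatch repair and crosslink repair are tied to DNA replication. Much of the regulation by ATM acts on proteins and is not read by RNA.

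Of the 49 genes, 37 had a probe above background on at least 2 of the 4 arrays and were tested, each by its brightest such probe. Fancd2, which encodes the Fanconi anaemia protein that marks DNA crosslinks, rose in Atm-/- brain, and Polb, the DNA polymerase of base excision repair, fell. The other 35 did not pass the threshold, an adjusted p under 0.05 by limma with Benjamini-Hochberg adjustment over all 22385 tested probes. The 2 of 37 stand beside 14.4% of all 12231 genes tested in the same way (7.50% higher and 6.89% lower), so the share of repair genes past the threshold was not above that background. At an adjusted p under 0.1 there were 5 of 37, against 23.2% of all genes, while 9 had an unadjusted p under 0.05, against 31.5%. Counted by probe, 5 of 56 tested probes of repair genes passed, against 13.0% of all tested probes. The median change of the 37 was 0.09 on the log2 scale (Atm-/- minus Atm+/+), against -0.01 over all genes tested, and their median absolute change was 0.44 against 0.45. A change had to reach a median of 2.10-fold, or 1.07 on the log2 scale, for a repair gene to pass.

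The probes of the targeted gene were read beside the labels. Atm probe ILMN_1258206 read log2 signals of 7.75 and 7.84 on the Atm+/+ arrays and 5.59 and 5.27 on the Atm-/- arrays, both at background, and was at least 4.46-fold lower (fitted change -2.36 ± 0.26 SE, limma adjusted p = 0.00224). A dimmer probe, ILMN_2783896, fell to background as well, at least 1.77-fold (adjusted p = 0.0205, up to 0.219 when 1 array was left out). Both of these probes entered the test only through the Atm+/+ arrays. The brightest Atm probe, ILMN_2492491, did not fall. It read 9.72 and 9.32 in Atm+/+ and 9.66 and 10.61 in Atm-/-, which overlap (limma adjusted p = 0.308). The position of the Atm probes in the gene, and so whether a deletion would remove their target, is not stated.

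Markers of brain regions moved with genotype. The marker lists were chosen with earlier results of these data known, so their counts describe these samples and are no independent test. Of 10 tested markers of cortex and hippocampus 9 rose, led by Ddn with a change of 7.88 on the log2 scale, and of 6 striatal markers 5 rose, led by Drd1. All 8 tested cerebellar markers fell, led by Pcp2, which was at least 152-fold lower, and so did all 6 hindbrain markers, led by Hoxb5. The summed linear signal of the cortical list was 33563 and 44228 in Atm+/+ and 92474 and 105611 in Atm-/-. Most of the Atm+/+ sum came from Rasgrf1, the marker of this list that did not pass. Rasgrf1 read log2 signals of 14.83 and 15.35 in Atm+/+ and 15.22 and 15.43 in Atm-/- (change 0.24, limma adjusted p = 0.627). The gap between these sums therefore understates that of the markers that rose. The summed signal of the cerebellar list was 85959 and 97456 against 6512 and 7014, with Pcp2, Lhx1 and Gabra6 at background on both Atm-/- arrays. That of the striatal list was 3114 and 5176 against 20412 and 20915, and that of the hindbrain list 4044 and 5758 against 269 and 306. At background on both Atm-/- arrays were 5 of the 6 hindbrain markers (Hoxb5, Hoxa5, Slc6a2, Hoxb4 and Dbh). At background on both Atm+/+ arrays were the cortical markers Icam5, Tbr1 and Emx1 and the striatal markers Drd1 and Pde10a. Among cell types, 4 of 5 choroid plexus markers fell (Kl first), 2 of 6 of astrocytes (Aqp4 first) and 1 of 5 of oligodendrocytes (Mobp), while 1 of 6 of endothelium rose (Tek). Of 6 microglial markers none passed (limma, 2 at an unadjusted p under 0.05, P2ry12 first), and of 4 markers of dividing cells Mcm2 fell. The summed signal of the dividing-cell list overlapped between genotypes, at 843 and 1277 against 945 and 1242. For every change given here, those at the Atm probes included, an effect of the Atm genotype and a difference in the regions sampled cannot be told apart. In bulk RNA, fewer cells of a type and less RNA per cell cannot be told apart either.

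Promoter letters of the repair genes, which played no part in choosing them, were read as well. In the RefSeq promoter table (GRCm38.p6), 42 of the 49 genes had an entry, and the 250 bases before the annotated start were searched on both strands for letters of common promoter elements. The GC box GGGCGG, bound by Sp1-type factors, was present in 27 of the 42 (64.3%), against 35.4% of the 27025 genes of the table, which include non-coding genes. CCAAT was present in 22 (52.4% against 37.5%), and TATAAA in 3 (7.14% against 14.3%). TTTCCCGC or TTTGGCGC, letters bound by E2F factors, the regulators of replication genes, were present in 6 (14.3% against 1.51%), namely Chek2, Mdc1, Brca2, Xrcc6, Msh3 and Fancg. TGACGTCA, the cyclic AMP response element, was present in 2 (4.76% against 1.77%). The windows held a median of 16.5 CpG dinucleotides against 6 over all genes. Of the 6 genes with E2F letters 4 were tested, and their changes of -0.89, 0.45, -0.13 and -0.14 (Chek2, Brca2, Xrcc6 and Msh3) did not pass. The windows of Parp1 and Fancc, with a probe past the threshold each, and of Nthl1 and Chek2, close to it, are printed 5′ to 3′ on the gene's strand, with capitals at any of these letters. The window of Rad54l, which was closer still to the threshold, is not printed. It held GC box and CCAAT letters and no E2F letters. Fancd2 and Polb had no entry.
Parp1, chr1:180568641-180568890, strand +: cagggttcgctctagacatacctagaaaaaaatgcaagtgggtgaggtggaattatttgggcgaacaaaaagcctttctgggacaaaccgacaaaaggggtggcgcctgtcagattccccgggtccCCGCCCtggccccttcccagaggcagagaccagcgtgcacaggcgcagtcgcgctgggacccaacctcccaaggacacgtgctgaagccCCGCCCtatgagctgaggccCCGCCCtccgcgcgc
Fancc, chr13:63431746-63431995, strand -: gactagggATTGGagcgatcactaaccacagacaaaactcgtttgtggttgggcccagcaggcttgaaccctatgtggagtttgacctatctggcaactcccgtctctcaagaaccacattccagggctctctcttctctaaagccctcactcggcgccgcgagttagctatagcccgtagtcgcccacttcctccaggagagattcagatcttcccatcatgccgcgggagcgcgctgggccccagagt
Nthl1, chr17:24632432-24632681, strand +: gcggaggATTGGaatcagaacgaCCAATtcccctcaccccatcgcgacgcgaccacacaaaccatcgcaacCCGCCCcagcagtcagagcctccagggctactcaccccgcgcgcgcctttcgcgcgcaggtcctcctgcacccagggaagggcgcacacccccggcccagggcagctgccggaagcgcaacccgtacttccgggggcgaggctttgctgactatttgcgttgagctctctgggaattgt
Chek2, chr5:110839733-110839982, strand +: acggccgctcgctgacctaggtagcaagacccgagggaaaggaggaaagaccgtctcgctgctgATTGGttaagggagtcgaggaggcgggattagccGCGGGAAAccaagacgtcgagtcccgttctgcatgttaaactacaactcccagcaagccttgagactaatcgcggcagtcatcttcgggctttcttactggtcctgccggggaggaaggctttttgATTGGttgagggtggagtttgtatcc
The window of Parp1 holds 3 GC boxes, that of Nthl1 1 GC box and 2 CCAAT boxes, that of Fancc 1 CCAAT box, and that of Chek2 2 CCAAT boxes and 1 run of E2F letters. A match describes letters only, and binding was not measured here.

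**Figure D1:**
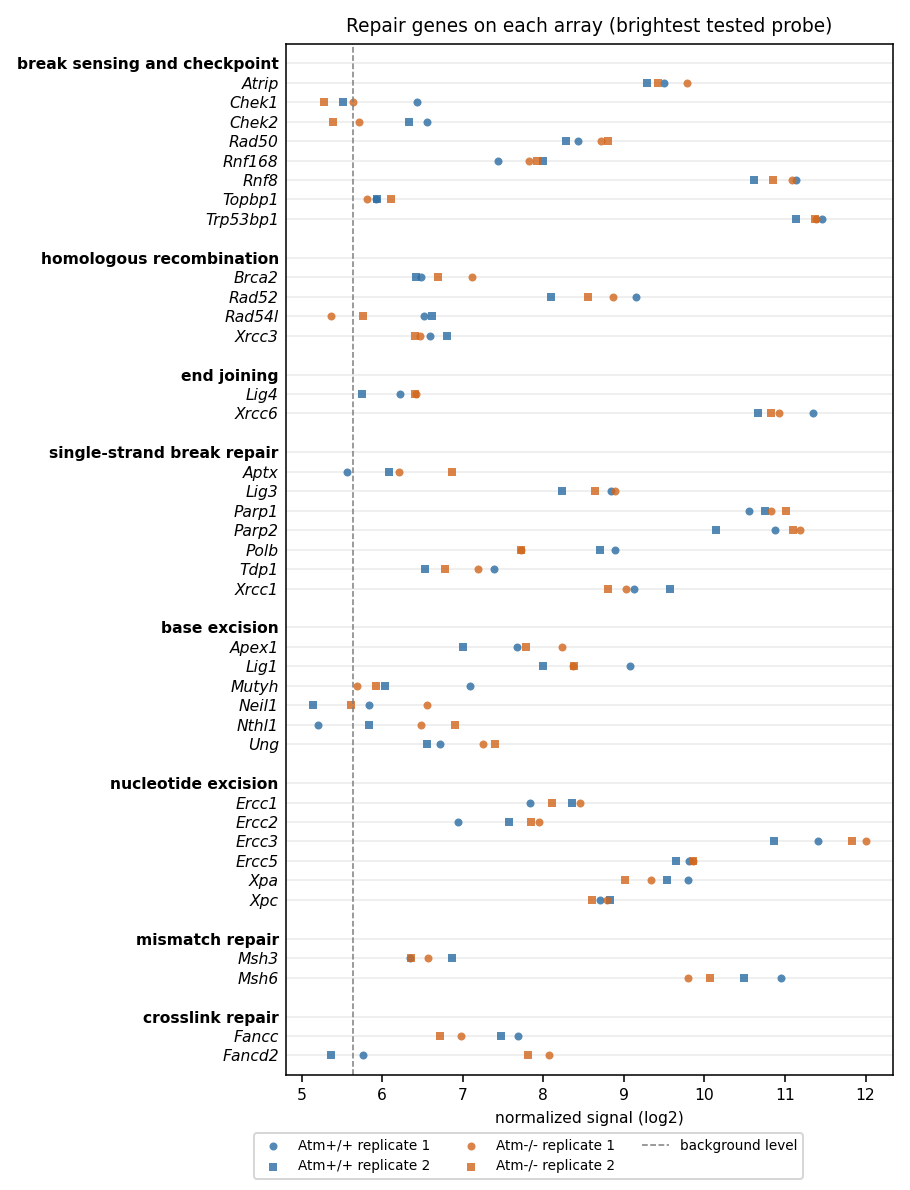
Normalized log2 signal (horizontal axis) of the brightest tested probe of 37 repair genes, grouped by pathway, with a point for each of the 4 arrays (blue Atm+/+, orange Atm-/-, circles replicate 1, squares replicate 2) and the background level of 5.64 as a dashed line. Fancd2 lies near background on the Atm+/+ arrays and at 7.81 and 8.07 on the Atm-/- arrays, while the arrays of the genotypes overlap in 15 of the 37 genes.

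Break sensing and checkpoint genes showed no call among 8 tested (limma, 1 at an unadjusted p under 0.05), with a median change of 0.09 and a range of -0.89 to 0.41. The largest change was that of Chek2, the checkpoint kinase that ATM phosphorylates, whose window with E2F letters is printed above. Chek2 read 6.55 and 6.33 in Atm+/+ and 5.72 and 5.38 in Atm-/-. The groups did not overlap, but the change of -0.89 ± 0.27 (SE, n = 2 per genotype) did not pass (limma adjusted p = 0.0716). The Atm-/- mean of 5.55 was below background, and with arrays below that level raised to it the difference was -0.76. With 1 of the Atm+/+ arrays left out it passed (adjusted p 0.0113 and 0.0308), and with 1 of the Atm-/- arrays left out it did not (0.351 and 0.570). Chek1, the corresponding kinase downstream of ATR, read 6.43 and 5.51 against 5.64 and 5.28, with overlap. The Atm-/- mean of Chek1, 5.46, was below background, and its change of -0.51 was -0.39 with arrays raised to background. Trp53bp1, which encodes a mediator protein bound at breaks, read 11.46 and 11.14 against 11.39 and 11.37, a change of 0.08 with a 95% interval of -0.53 to 0.69. Rad50, of the MRE11 complex that brings ATM to breaks, read 8.43 and 8.28 against 8.72 and 8.80, a change of 0.41 that did not pass (adjusted p = 0.320). Rnf8 and Rnf168, the ubiquitin ligases that act next at breaks, differed by 0.09 and 0.15, and Atrip and Topbp1, partners and activators of ATR, by 0.21 and 0.04, with overlapping arrays at the brightest probe of each. The second probe of Rnf8 read 8.81 and 8.26 against 9.04 and 8.92, a change of 0.44 without overlap (adjusted p = 0.348), and that of Trp53bp1 differed by -0.33 (adjusted p = 0.456). Mdc1, the mediator that reads phosphorylated histone H2AX, and Nbn, the third subunit of the MRE11 complex, were below background on all 4 arrays at every probe.

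Of the homologous recombination genes none of 4 passed (limma, 1 at an unadjusted p under 0.05). Rad54l, which encodes a DNA-dependent motor protein of recombination, came closest. It read 6.52 and 6.61 in Atm+/+ and 5.37 and 5.76 in Atm-/-, with no overlap. Its change of -1.001 ± 0.27 stood just short of the 1.01 needed (adjusted p = 0.0519), with an Atm-/- mean of 5.56, below background. With arrays below background raised to that level the difference was -0.86. Brca2, a tumour suppressor needed for recombination, read 6.48 and 6.42 against 7.11 and 6.69, a change of 0.45 (adjusted p = 0.305). Its dimmer probe was at background on both Atm-/- arrays, with 5.31 and 5.41, and at least 1.05-fold lower (fitted change -0.35, adjusted p = 0.388). Rad52 read 9.15 and 8.10 on the Atm+/+ arrays, over 2-fold apart, and both Atm-/- arrays, at 8.87 and 8.55, lay between them. Xrcc3, which acts in recombination, differed by -0.26. Brca1 was above background on 1 array only and was not tested.

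Of the end joining genes only 2 could be tested. Xrcc6, which encodes the Ku70 subunit that caps broken ends, read 11.35 and 10.66 against 10.93 and 10.83, a change of -0.13 with a 95% interval of -0.85 to 0.59. Its other tested probes differed by -0.48 and 0.20, and none of the 3 passed (limma adjusted p 0.253 to 0.820, none at an unadjusted p under 0.05). Lig4, the ligase that seals the ends, read 6.22 and 5.75 against 6.42 and 6.40, a change of 0.43 without overlap that did not pass (adjusted p = 0.340). The probes of Xrcc5, which encodes Ku80, and of Nhej1, which encodes the ligase cofactor XLF, were below background on all 4 arrays. Xrcc4, the partner of the ligase, was above it on Atm+/+ replicate 1 alone.

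Single-strand break repair held the fall of Polb among its 7 tested genes. Polb read 8.89 and 8.71 in Atm+/+ and 7.73 on both Atm-/- arrays, 2.10-fold lower, with a change of -1.07 ± 0.25 and a limma adjusted p of 0.0339. No other probe carried its symbol, so no further probe could be set beside this call. The call was lost without Atm-/- replicate 1 and without Atm-/- replicate 2 (adjusted p = 0.339 in both), though the change was the same. Aptx, which encodes aprataxin and is mutated in a human ataxia, read 5.56 and 6.08 against 6.20 and 6.86, a change of 0.71 (adjusted p = 0.198). Tdp1, which clears stalled topoisomerase I from DNA and is also mutated in a human ataxia, differed by 0.02 with an interval of -0.80 to 0.84, and its Atm-/- arrays lay between the Atm+/+ arrays. Xrcc1, the scaffold of this pathway, read 9.13 and 9.57 against 9.03 and 8.80, a change of -0.44 (adjusted p = 0.337).

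Probes of the same gene disagreed for 4 genes, meaning that only some passed (Parp1 and Fancc) or that their signs were opposite and over 1 apart on the log2 scale (Parp2 and Lig3). Fancc is described with crosslink repair. Parp1, the enzyme that marks strand breaks with poly(ADP-ribose), differed by 0.26 and 0.53 at its brighter probes, which did not pass (adjusted p = 0.537 and 0.240). Its dimmest tested probe, ILMN_1222228, read 5.85 and 6.72 in Atm+/+ and 7.78 and 7.57 in Atm-/-, a rise of 1.39 ± 0.34 (adjusted p = 0.0389) that was lost with either Atm-/- array left out (adjusted p up to 0.282). Parp2, a second such enzyme, read 10.88 and 10.14 against 11.19 and 11.10 at its brightest probe, a change of 0.63 (adjusted p = 0.225). At ILMN_2598576 the same gene read 8.45 and 9.04 against 7.88 and 7.61, a change of -0.998 (adjusted p = 0.0716), 1.63 below that of the brightest probe. Its remaining tested probe, ILMN_2586462, sided with the brightest, at 6.37 and 5.98 against 6.78 and 6.53, a change of 0.48 without overlap (adjusted p = 0.286). Lig3, the ligase of this pathway and of mitochondrial DNA, differed by 0.24 at its brightest probe and by -0.84 and -0.40 at its others, with no call among the 3 (lowest adjusted p = 0.0938). Of 14 repair genes with more than 1 tested probe, 7 had probes of opposite sign. The same share over all genes was not computed, so these counts are not read as a trait of repair genes.

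**Figure D2:**
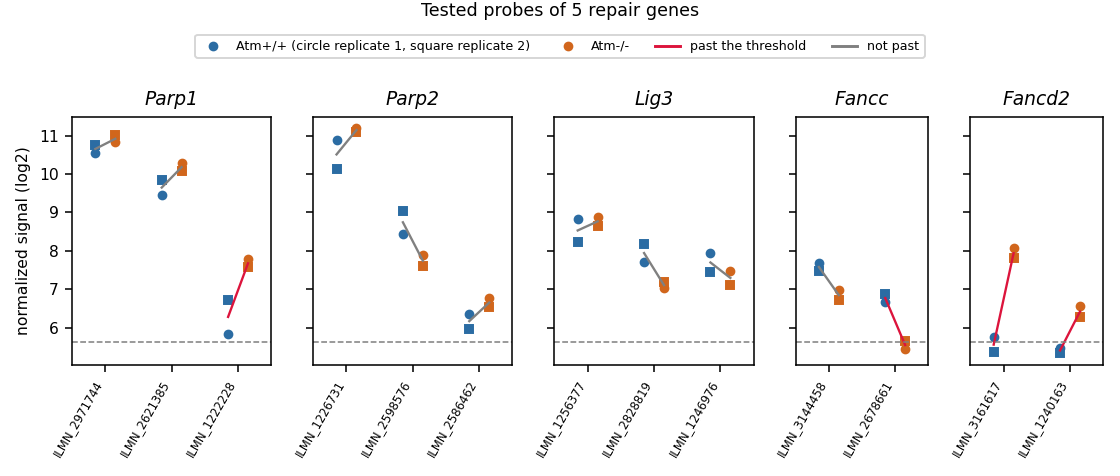
Normalized log2 signal (vertical axis) at each tested probe of Parp1, Parp2, Lig3, Fancc and Fancd2, with blue points for Atm+/+, orange for Atm-/-, circles and squares for replicates 1 and 2, lines between genotype means (red past the threshold, grey not) and the background level dashed. The probes of Parp2 and Lig3 point in opposite directions, while both Fancd2 probes rise and both Fancc probes point down.

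Base excision genes had the largest median change of the pathways with more than 2 genes tested, 0.64, yet none of 6 passed (limma, 2 at an unadjusted p under 0.05). Polb, which also acts in base excision and fell, is counted with single-strand break repair and not among these 6. Nthl1, a glycosylase that removes oxidised pyrimidines, read 5.21 and 5.83 in Atm+/+ and 6.48 and 6.90 in Atm-/-. Its change of 1.17 ± 0.32 stood against the 1.19 needed (adjusted p = 0.0524), and the Atm+/+ mean of 5.52 was below background. With arrays below background raised to that level the difference was 0.96. Only 1 Atm+/+ array was above background, so Nthl1 needed the Atm-/- arrays, where it was high, to be tested. Ung, which removes uracil, read 6.71 and 6.55 against 7.26 and 7.40, a change of 0.70 without overlap (adjusted p = 0.116). Apex1, the endonuclease that cuts the site a glycosylase leaves, read 7.67 and 7.003 against 8.23 and 7.79, a change of 0.67 (adjusted p = 0.214). Neil1, also a glycosylase for oxidised bases, differed by 0.60 with overlapping arrays. Its Atm+/+ mean of 5.49 was below background, and with arrays raised to background the difference was 0.36. Mutyh, which removes adenine paired with oxidised guanine, pointed the other way at -0.76 (adjusted p = 0.228), its Atm+/+ arrays at 7.09 and 6.03 being over 2-fold apart. Lig1, the replicative ligase, read 9.08 and 7.997 against 8.37 and 8.39, so the Atm-/- arrays lay between the Atm+/+ arrays. Its dimmer probes were lower without overlap and did not pass. ILMN_2657356 read 6.64 and 6.70 against 5.86 and 6.20, a change of -0.63 (adjusted p = 0.156), and ILMN_2627660 differed by -0.18 (adjusted p = 0.688). Ogg1, the glycosylase for oxidised guanine, was too dim to test.

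All 6 nucleotide excision genes were tested and none passed (limma, 1 at an unadjusted p under 0.05), with a median of 0.16. Ercc3, which encodes a helicase of the transcription factor TFIIH, had the largest change. It read 11.41 and 10.87 in Atm+/+ and 12.001 and 11.84 in Atm-/-, a change of 0.78 ± 0.29 without overlap (adjusted p = 0.121), and its other probe differed by -0.16. Ercc2, the second TFIIH helicase, differed by 0.65 and 0.44 at its tested probes (adjusted p = 0.196 and 0.393). Xpa, which holds the damaged site for the nucleases, read 9.80 and 9.53 against 9.34 and 9.01, a change of -0.49 (adjusted p = 0.272). Ercc5, the nuclease that cuts 3' of the damage, read 9.81 and 9.65 against 9.86 and 9.85. Its interval of -0.46 to 0.71 leaves out a 2-fold change in either direction, as does that of its second probe, from -0.74 to 0.59. The interval of Xpc, the damage sensor, was -0.66 to 0.53. Ercc1, part of the nuclease on the other side, differed by 0.19.

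In mismatch repair, Msh6, which recognises mispaired bases, was lower at both its probes without passing. It read 10.96 and 10.49 against 9.79 and 10.07 at the brighter probe, a change of -0.79 ± 0.28 (adjusted p = 0.112), and differed by -0.73 at the other (adjusted p = 0.115). Msh3, which recognises small loops of unpaired bases, read 6.35 and 6.86 against 6.57 and 6.36, a change of -0.14 with overlap.

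Crosslink repair held the largest change of all repair genes. Fancd2 read 5.76 and 5.37 in Atm+/+ and 8.07 and 7.81 in Atm-/-, 5.20-fold higher, with a change of 2.38 ± 0.28 (95% interval 1.73 to 3.03, limma adjusted p = 0.00271). The Atm+/+ signals lay on either side of the background level of 5.64, and their mean of 5.56 lay below it, so the fitted fold and interval rest on a level the arrays did not read above background. With each array below that level raised to it, Fancd2 was 4.72-fold higher. The second probe, at background on both Atm+/+ arrays with 5.49 and 5.34, read 6.57 and 6.27 in Atm-/-, at least 1.72-fold higher (adjusted p = 0.0465). This probe entered the test only through the Atm-/- arrays, where it was high, and did not pass without a filter on dim probes. The brighter probe was above background on 1 Atm+/+ array, so it too needed the Atm-/- arrays, where it was high, to be tested. Without that filter the brighter probe still passed. The call at the brighter probe held whichever array was left out (adjusted p up to 0.0287), and that at the dimmer probe was lost without either Atm-/- array. Fancc, of the Fanconi core complex that ubiquitinates FANCD2, read 7.69 and 7.47 against 6.98 and 6.72 at its brighter probe, a change of -0.73 ± 0.26 that did not pass (adjusted p = 0.111). At its dimmer probe Fancc fell from 6.68 and 6.87 to 5.45 and 5.65, with a mean of 5.55 below background, by 1.22 on the log2 scale (adjusted p = 0.0242; a difference of -1.13 with arrays raised to background), a call lost without either Atm-/- array (adjusted p up to 0.312). Fanca and Fancg, also of the core complex, were below background on all 4 arrays.

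**Figure D3:**
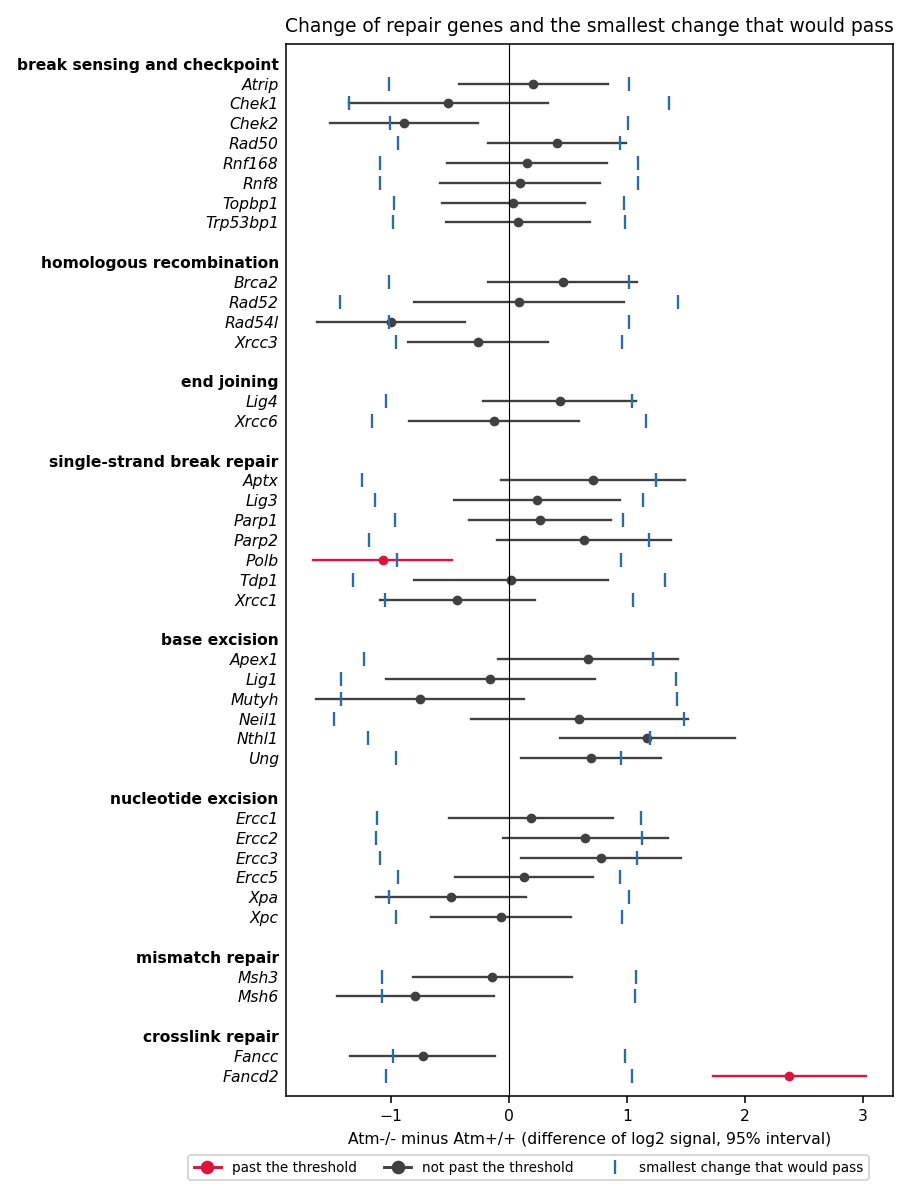
Difference of log2 signal, Atm-/- minus Atm+/+ (horizontal axis), of 37 repair genes with its 95% interval, red where past the threshold, and blue ticks at the smallest change of that gene that would have passed. Fancd2 at 2.38 and Polb at -1.07 lie beyond their ticks, and Rad54l and Nthl1 lie almost on theirs.

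The smallest change that could pass was set by the threshold and by each gene's SE. In limma that SE combines the gene's own spread between arrays (2 residual degrees of freedom) with a variance pooled over probes (5.22 prior). The largest p called in the fit over all probes, 0.00652, corresponds to a moderated t of 3.78, and multiplied by each gene's SE this gave 1.92-fold to 2.80-fold over the 37 genes. Neil1, Rad52, Lig1 and Mutyh needed the most, at 2.80-fold, 2.70-fold, 2.68-fold and 2.68-fold. For 16 of the 37 genes the 95% interval lay wholly within a 2-fold change in either direction. For the other 21, changes of 2-fold in at least 1 direction were not excluded by the interval. The arrays of the genotypes did not overlap at 22 of the 37 genes, 13 higher and 9 lower in Atm-/-, against 61.7% of all genes tested (29.5% higher and 32.2% lower). The exact permutation test of a single gene cannot go below 0.333 with 2 arrays against 2.

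The spread was unequal between the genotypes. The Atm+/+ arrays stood over 2-fold apart at Rad52, Mutyh and Lig1, 3 of the 37 genes against 10.6% of all genes tested, and the Atm-/- arrays at none, against 0.646%. The median gap between the Atm+/+ arrays over the repair genes was 0.47 and that between the Atm-/- arrays 0.24 on the log2 scale. The number of repair genes called followed which array was left out. It was 10 without Atm+/+ replicate 1 (39.2% of all genes tested), 12 without Atm+/+ replicate 2 (34.0%) and 1, Fancd2, without either Atm-/- array (3.59% and 3.46%). With 1 array in a genotype, that array is assumed to vary like the other genotype. Fancd2 was called in all 4 of these fits, and Polb, Chek2, Rad54l and Nthl1 in both that left out an Atm+/+ array.

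**Figure D4:**
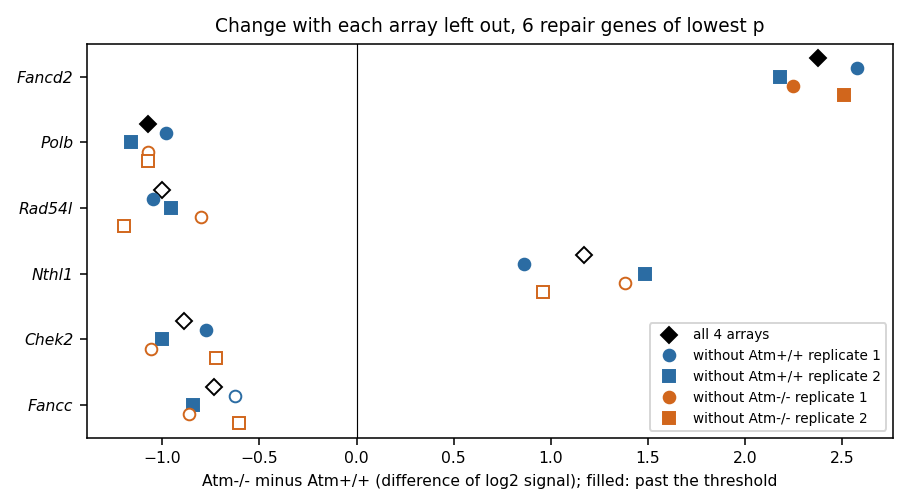
Difference of log2 signal, Atm-/- minus Atm+/+ (horizontal axis), of the 6 repair genes of lowest p with all 4 arrays (black) and with 1 array left out (blue for an Atm+/+, orange for an Atm-/- array), filled where the change passed the threshold. The direction is the same throughout for these 6 genes, and Fancd2 is filled in every fit.

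Of 103 further damage response genes 72 were tested, and by their brightest probe 2 rose and 4 fell, against the 14.4% of all genes, with a median of -0.04. Over all their tested probes 9 of 110 passed, against 13.0% of all tested probes. Clspn, which encodes the adaptor claspin that lets ATR activate CHK1, was at background in Atm+/+ with 5.43 and 5.06 and read 7.16 and 7.15 in Atm-/-, at least 2.86-fold higher (adjusted p = 0.00554). Its second probe was at least 1.88-fold higher. Both Clspn probes entered the test only through the Atm-/- arrays, where they were high, so their calls carry that selection. Smug1, a uracil glycosylase, rose from 7.11 and 7.34 to 8.63 and 9.04, by 1.61 ± 0.28 (adjusted p = 0.0116).

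Cdc25a, the phosphatase that CHK1 and CHK2 mark for destruction, fell from 8.11 and 8.63 to 6.25 and 6.39, by 2.05 on the log2 scale (adjusted p = 0.00547), while its dimmer probe differed by 0.39 and did not pass. Rpa3, of the single-strand binding complex, fell by 1.40 on the log2 scale from 9.56 and 9.89 to 8.27 and 8.39 (adjusted p = 0.0165). Polh, a polymerase that copies past ultraviolet damage, fell by 1.26 (adjusted p = 0.0242), and Mus81, a nuclease of branched DNA, by 1.06 (adjusted p = 0.0444). None of these 6 calls was kept in both fits that left out an Atm-/- array (the higher adjusted p ran from 0.0566 to 0.368). Of the kinases related to ATM, Atr differed by 0.10 ± 0.26 and Prkdc by 0.08 ± 0.28, and neither passed (adjusted p = 0.843 and 0.887). H2ax, the histone these kinases phosphorylate at breaks, read 9.06 and 9.91 against 8.91 and 8.83, a change of -0.62 (adjusted p = 0.264). Mre11 had no probe under its symbol and was not analysed here. Ercc8, of nucleotide excision, differed by -0.27 at its brightest probe and is not among the 6 calls. Its probe ILMN_2600315 read 9.01 and 7.71 against 6.96 and 6.11, a change of -1.82 that passed (limma adjusted p = 0.0481).

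**Figure D5:**
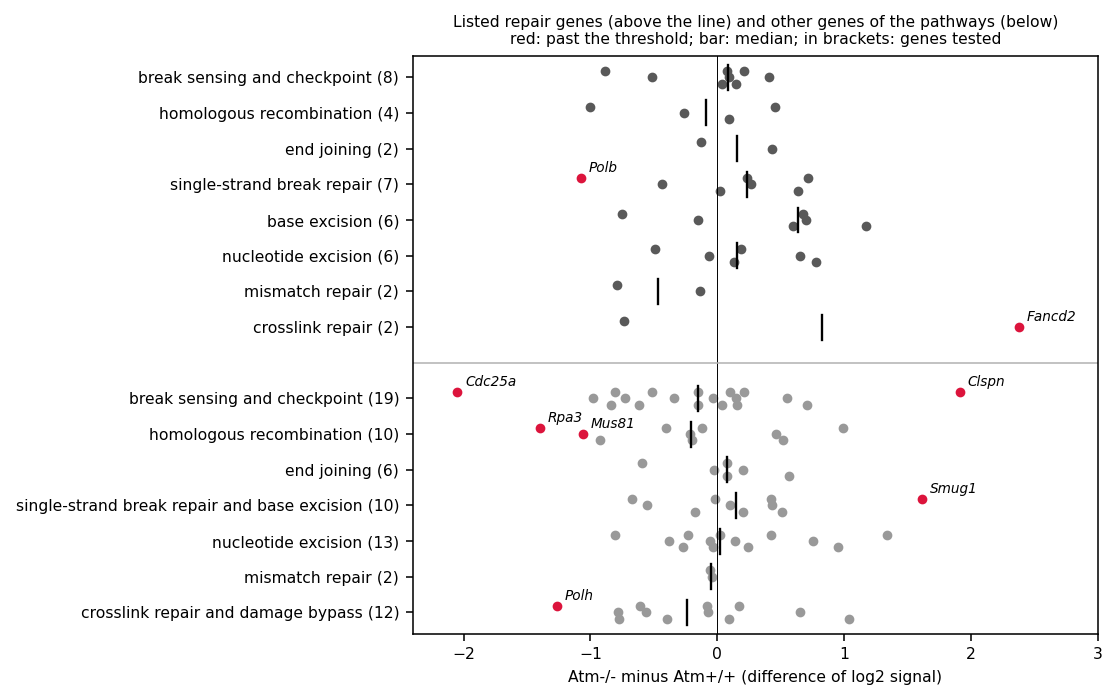
Difference of log2 signal, Atm-/- minus Atm+/+ (horizontal axis), of each tested gene by its brightest probe, by pathway, for the listed repair genes (top) and other genes of the pathways (bottom), with red points past the threshold and a bar at each median. The medians of most pathways lie near 0, with Fancd2, Clspn and Smug1 to the right and Cdc25a, Rpa3, Polh, Mus81 and Polb to the left.

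Among the tested members, 4 lie on chromosome 9 with Atm, namely Chek1, Topbp1, Atrip and Neil1. Their changes were -0.51, 0.04, 0.21 and 0.60, and none passed (adjusted p 0.353 to 0.943, none at an unadjusted p under 0.05 by limma). With arrays below background raised to that level, the changes of Chek1 and Neil1 were -0.39 and 0.36. Of the further damage response genes named above, Cdc25a, H2ax and Atr also lie on chromosome 9, with changes of -2.05, -0.62 and 0.10. Of these Cdc25a passed.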

How the data were processed

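Signals in total RNA from brain of 4 samples were read on Illumina bead arrays. The values analysed were the log2 signals the authors deposited as processed values. The software and normalization are not given in the sources used. The log base was inferred from the range of 4.47 to 16.1, and sorted arrays differed by at most 0.0792, as quantile normalization leaves them, so a shift of most genes 1 way cannot be seen. A table before normalization holds 8 columns of per-sample values that match the labels of no single sample and were not used. The background level, 5.64, is 3 SD above the mode of all values (mode 5.05, SD 0.195), and probes above it on at least 2 of 4 arrays were tested (22385 of 45281). The share of probes above this level was 47.0% to 47.1% per array, and the number of arrays limits the precision. Where both arrays of a genotype were at background, the fold is given as at least the mean of the brighter genotype over that level. Such probes entered the test only through the arrays of the other genotype.

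Atm-/- was compared with Atm+/+ by lmFit and eBayes (limma 3.58.1, run in R 4.3.3), without covariates (2 residual and 5.22 prior degrees of freedom). The fit was first run on simulated data with equal noise in both genotypes, which does not cover the unequal spread described above. P-values were adjusted by Benjamini-Hochberg over all tested probes and the threshold was an adjusted p under 0.05. Symbols came from the platform annotation (34885 probes with 1 symbol, 18 with several), were looked up by gene identifier in a RefSeq gene table (GRCm38.p6, 99.8% matched, 0 changed), and each gene is given by its brightest tested probe. Named were all 49 members, those past the threshold or with disagreeing probes in full, Atm, other pathway genes past the threshold with Atr, Prkdc, Mre11 and H2ax, and the marker of lowest p in each list. Members and lists were chosen with earlier results of these data known. Alternatives changed the background level, the filter on dim probes, the array left out, the array weights, the variance trend, the choice of probe, the normalization, and a block for the replicate number.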

Additional observations from a re-analysis of the deposited data

How the results depend on the processing

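Of the repair genes 2 were past the threshold, 1 higher and 1 lower. With all 4 arrays above background required, 1 passed (0 higher, 1 lower), because Fancd2 was left out of the test. With the mean of the tested probes of a gene 5 passed (2 higher, 3 lower), Fancc, Nthl1 and Rad54l being added, with array weights per genotype 2 were higher, and at an adjusted p under 0.1 there were 5. With the replicate block 5 passed (2 higher, 3 lower), and 12 of the other damage response genes in place of 6. Nothing shows that the replicate numbers pair the samples: the labels name no shared litter or day, and the difference between replicates 1 and 2 correlated across probes between the genotypes with r = 0.06. Leaving out 1 array gave 1 to 12 repair genes (1 to 7 higher, 0 to 8 lower), 0 to 28 other damage response genes and 22 to 46 region and cell markers, in place of 37; the marker count was 23 with all 4 arrays above background required. The median smallest change that would pass was 1.07 on the log2 scale, 1.25 without a filter, 0.88 with the replicate block and 0.66 to 2.03 with 1 array left out.

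Without a filter the dimmer Fancd2 probe (adjusted p = 0.0504), Parp1 probe ILMN_1222228 (0.0824) and Mus81 (0.0558) no longer passed, and with the mean of the tested probes Cdc25a did not (-0.83, adjusted p = 0.135). Signs turned only in changes that had not passed. With the mean of the tested probes these were Trp53bp1 (-0.12), Lig3 (-0.33) and Atm (-1.03, adjusted p = 0.0296, probe ILMN_2492491 being averaged with those that fell). With 1 array left out the ranges that crossed 0 were -0.079 to 0.24 for Trp53bp1, -0.47 to 0.22 for Xrcc6, -0.17 to 0.35 for Rnf8, -0.16 to 0.029 for Xpc, -0.44 to 0.61 for Rad52, -0.067 to 0.54 for Lig3, -0.70 to 0.38 for Lig1, -0.072 to 0.45 for Ercc1, -0.13 to 0.43 for Rnf168, -0.41 to 0.45 for Tdp1, -0.40 to 0.12 for Msh3, -0.11 to 0.18 for Topbp1, -0.16 to 0.31 for Prkdc and -0.067 to 0.26 for Atr. A background level 2 SD above the mode, no filter on dim probes, an intensity trend and a second quantile normalization left the repair genes called at 2, Fancd2 and Polb. The causes of these shifts were not tested unless given.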
